A study of Mus musculus with 2 samples.

Results

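The solute carriers are the largest group of membrane transport proteins in mammals. Their genes carry symbols that begin with Slc, followed by a family number, a letter and a member number, so that Slc25a4 is member 4 of family 25. Carriers of the plasma membrane bring in amino acids, sugars, nucleosides, vitamins and metal ions, family 25 moves metabolites across the inner mitochondrial membrane, and family 35 supplies nucleotide sugars to the Golgi apparatus and the endoplasmic reticulum. Muscle stem cells (MuSCs) rest in adult muscle and, after injury, enter the cell cycle and grow, which raises their need for nutrients and for mitochondrial exchange.

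The genes described here are those whose mouse symbol starts with Slc, a number and a letter, that are not pseudogenes, and that had at least 50 unique molecular identifiers (UMIs) over all barcodes of the short-read table of the 90% aliquot. This gave 162 genes of the 312 Slc symbols listed, among 12795 genes that reached the same minimum and 26997 genes listed in all. The other 150 Slc symbols lay below the minimum. Just inside it were Slc24a3 with 50, Slc7a3 with 54 and Slc2a12 with 56 UMIs, and just outside were Slc39a8 with 49, Slc9a5 with 47 and Slc25a43 with 45. The genes were chosen by their summed UMIs, and barcodes of high UMI count weigh most in that sum. The median member held 241.5 UMIs and 70 members held under 200, so that small differences were not detectable for many of them. All 162 were listed in the short-read table of the 10% aliquot, and 152 had an isoform in the long-read table. Of the 162, 4 have an Slc symbol but encode no carrier (Slc9a3r1, Slc9a3r2, Slc7a6os and Slc4a1ap).

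The cells came from hindlimb muscle of 3-month-old Pax7creERT2;R26-eYFP fl/fl mice on a C57BL6 background, given tamoxifen daily for 5 days so that cells in which the Pax7 gene is active carry YFP, and were sorted on YFP. Quiescent MuSCs came from uninjured muscle and activated MuSCs from muscle injected with 1.2% barium chloride and taken 72 h later. Both were run in 1 capture with the 10x 3′ protocol and divided into a 10% aliquot (Illumina and nanopore reads) and a 90% aliquot (Illumina reads). No cell carries a label of its origin and there is no replicate, so no test was run and every interval covers counting error only.

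Barcodes were divided by their UMI count, not by cell type. In the 90% aliquot the low-UMI class held the 1243 barcodes with 3000 to 15000 UMIs and no UMI of the cell cycle genes Rrm2, Top2a and Cdk1 (6452314 UMIs, median 4680 per barcode), and the high-UMI class held the 606 barcodes with at least 20000 UMIs (29875734 UMIs, median 47106). Only 35 of these 606 had no UMI of the cell cycle genes. The 10% aliquot gave 157 low-UMI barcodes with 1114508 UMIs and 79 high-UMI barcodes with 5099209 UMIs. Of the markers of quiescent MuSCs, 7 of 9 were at least 2-fold higher in low-UMI barcodes (709.5 against 88.6 counts per 1000000 UMIs of the class, CPM, summed over the list). Of 10 markers of activated MuSCs 8 were higher in high-UMI barcodes, of which Rrm2, Top2a and Cdk1 had set the classes, and 1, Myod1, was higher in low-UMI barcodes (1069 against 213). Of 8 immune markers 7 were higher in low-UMI barcodes, summing to 235 against 5.02 CPM, and 10 low-UMI and 25 high-UMI barcodes held at least 2 immune UMIs. Fibroblast markers summed to 90.8 against 7.77 CPM with Pdgfra at 0 in low-UMI barcodes, and mural markers to 89.6 against 47.7. At least 2 fibroblast UMIs were held by 108 low-UMI and 11 high-UMI barcodes, and at least 2 mural UMIs by 109 and 170. For endothelial markers these counts were 9 and 46, for Schwann cell markers 3 and 3, and for red cell markers 3 and 20. Scx, the tendon marker listed, went the other way, with 4.18 against 21.3 CPM, and 5 low-UMI and 156 high-UMI barcodes held at least 2 of its UMIs. The part of such cells in single results was not tested beyond the counts without these barcodes, and fewer cells of a kind cannot be told apart from less RNA per cell. The aliquots are not independent sets of barcodes. All 236 barcodes of the classes of the 10% aliquot were also listed in the table of the 90% aliquot, and 232 of these were closest in expression to the entry of the same barcode (median r 0.934, against 0.666 with other barcodes). Results of the 90% aliquot are therefore also given without the 634 barcodes listed in both tables.

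A level is the summed UMIs of a gene scaled in this way, in CPM, and in this 3′ protocol a UMI marks 1 molecule whatever the length of the transcript. A gene was counted as higher in a class if its level was at least 2-fold higher and the exact 95% interval of the ratio lay beyond 1. By this rule 36 of 162 members (22.2%) were higher in low-UMI barcodes, where 17.7% of all genes were, and 42 (25.9%) were higher in high-UMI barcodes, where 29.8% of all genes were. The other 84 were counted in neither direction. The median log2 ratio, low-UMI over high-UMI, was -0.21 over the members and -0.30 over all genes. Scaled to the all-gene median instead of to the total, 42 members were higher in low-UMI barcodes (22.8% of all genes) and 33 in high-UMI barcodes (22.5%). Without the barcodes listed in both tables the counts were 35 (17.7% of all genes) and 40 (29.3%), and without barcodes that held at least 2 UMIs of markers of other cell types they were 36 (17.7% of all genes) and 46 (31.2%).

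Members took 0.382% of all UMIs in low-UMI barcodes (95% interval 0.377 to 0.386%) and 0.420% in high-UMI barcodes (0.418 to 0.422%). Their make-up differed more than their sum. Slc25a4, Slc25a5 and Slc25a3, the ADP/ATP and phosphate carriers of mitochondria, held the most UMIs of all members in high-UMI barcodes and 55.6% of all member UMIs there. In low-UMI barcodes the leading members were Slc43a3, Slc3a2 and Slc25a3, and the 3 that led there held 26.2%.

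**Figure D1:**
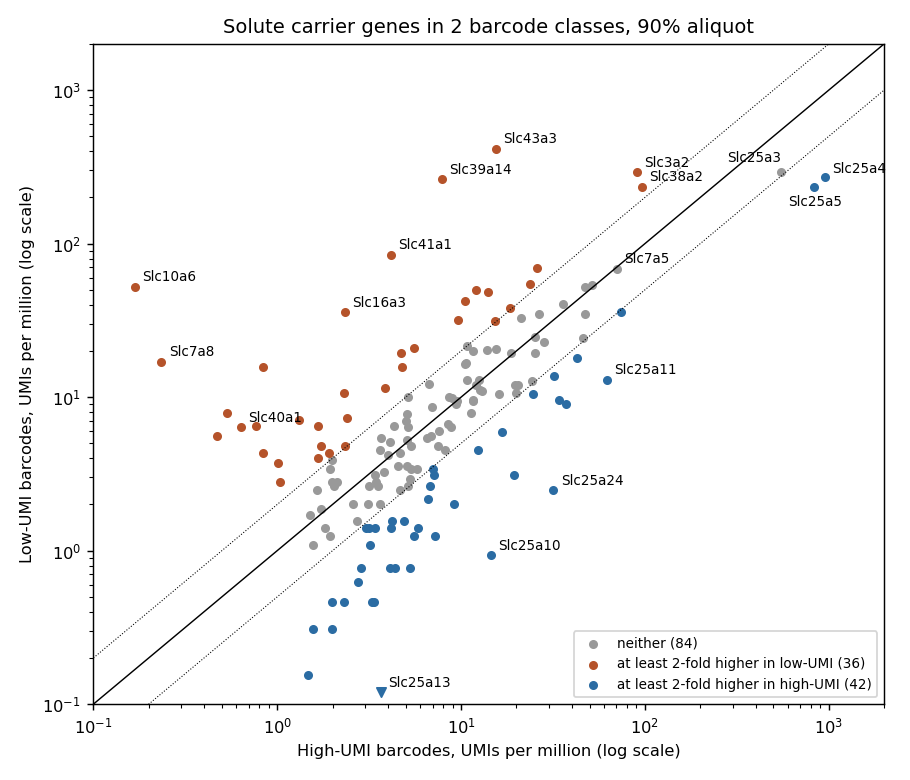
Level of each of the 162 solute carrier genes in CPM, in high-UMI (horizontal) and low-UMI barcodes (vertical) of the 90% aliquot, both on log scales; 36 genes at least 2-fold higher in low-UMI barcodes are brown, 42 higher in high-UMI barcodes are blue and 84 counted in neither are grey. The solid line marks equal levels, the dotted lines mark 2-fold, and Slc25a13, which had 0 UMIs in low-UMI barcodes, is a triangle near the lower edge.

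Carriers of amino acids leaned to low-UMI barcodes. Of 22 members, 8 were higher in low-UMI barcodes (17.7% of all genes), 3 in high-UMI barcodes (29.8% of all genes) and 11 in neither. The group held 885 CPM in low-UMI and 461 in high-UMI barcodes, and Slc3a2 and Slc38a2 held most of the low-UMI sum. Slc3a2, the heavy chain that brings several amino acid exchangers to the cell surface, had 1884 UMIs in low-UMI and 2699 in high-UMI barcodes, or 292 against 90.3 CPM, a 3.23-fold difference (95% interval 3.05 to 3.43). In the 10% aliquot its levels were 312 and 83.9 CPM. Both aliquots thus put Slc3a2 above its high-UMI level. The light chains that pair with it did not share one direction. Slc7a8, a light chain for neutral amino acids, was at 17.1 CPM in low-UMI and 0.234 in high-UMI barcodes, 72.8-fold higher (34.1 to 185), with 110 and 7 UMIs. In the 10% aliquot it had 15 and 0 UMIs. Slc7a11, the cystine and glutamate exchanger, was 4.11-fold higher in low-UMI barcodes (3.20 to 5.26), at 19.4 against 4.72 CPM. Slc7a5, a light chain for leucine and other large amino acids, had levels of 68.5 and 70.5 CPM, a ratio of 0.971 (0.875 to 1.08), and 50.2 and 57.8 in the 10% aliquot. Slc7a11 UMIs were few and uneven, with up to 13 in 1 barcode of either class.

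The sodium-coupled carriers of amino acids also differed from one another. Slc38a2, which takes up alanine, glutamine and other small amino acids and is known to respond to amino acid shortage, was at 235 CPM in low-UMI and 96.0 in high-UMI barcodes, 2.45-fold higher (2.30 to 2.61). Its relative Slc38a1 had levels of 51.9 and 47.2 CPM and a ratio of 1.10 (0.973 to 1.24). Slc1a5, which takes up glutamine, stood at 40.3 and 35.95 CPM, with a ratio of 1.12 (0.975 to 1.29). These 2 ratios had intervals that include 1. Slc6a6, the taurine carrier, was at 34.7 and 47.1 CPM, and its ratio of 0.738 (0.638 to 0.850) stayed within 2-fold. Slc43a1, a sodium-independent carrier of large neutral amino acids, was 4.63-fold higher in low-UMI barcodes (3.27 to 6.56). On the other side stood Slc7a3, a carrier of arginine and lysine, with 2 UMIs in low-UMI and 47 in high-UMI barcodes, 5.08-fold higher in the latter with a wide interval (1.33 to 43.1).

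Several amino acid carriers, Slc7a11 among them, are known targets of Atf4, a transcription factor that acts when amino acids are short, and other genes of that response were read beside them. Atf4 was at 621 CPM in low-UMI and 281 in high-UMI barcodes. Chac1, Ddit3 and Sesn2, which Atf4 is known to induce, were 4.53-fold, 3.97-fold and 3.31-fold higher in low-UMI barcodes. Enzymes of amino acid synthesis that the same factor is known to induce went the other way. Asns, asparagine synthetase, was 13.6-fold higher in high-UMI barcodes, Phgdh 8.40-fold and Psat1 5.12-fold, both of the serine pathway. Trib3, a further target, had a ratio of 1.16 (0.915 to 1.46). For comparison, 32 partner genes of carriers were chosen. Of these 11 were higher in low-UMI barcodes (17.7% of all genes), 10 in high-UMI barcodes (29.8% of all genes) and 11 in neither.

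The core of the Atf4 binding element, TGATGNAA on either strand, was searched in the stretch from 250 bases before to 50 bases after the start sites that RefSeq gives on GRCm38.p6. A gene was taken to hold a motif if any of its start sites did. Promoters were found for 125 of the 162 members. The core occurred in 4 of these (3.2%) and in 4.51% of all 27025 genes with a promoter. The 27025 genes were not limited to those with at least 50 UMIs, as the members were. Slc7a11 held 2 copies, which started 66 and 47 bases before its start site and pointed in opposite directions, and the stretch that holds both is shown from chr3:50443642-50443690, minus strand, with the copies in capitals. A match of letters is a description and not a site of binding.
Slc7a11 promoter: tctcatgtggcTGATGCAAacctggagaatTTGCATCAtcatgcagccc

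The E-box CACGTG, the same on both strands and shared by factors such as Myc, occurred in the promoters of 22 members (17.6%) and of 8.09% of all genes. It did not separate the directions. Of members higher in low-UMI barcodes 18.5% of those with a promoter held it, of members higher in high-UMI barcodes 14.3%, and of those in neither 19.05%. Myc itself was at 456 CPM in low-UMI and 53.1 in high-UMI barcodes. Windows of 30 bases are shown for members of either direction, with the E-box in capitals, Slc43a1 at chr2:84840247-84840276 on the plus strand and Slc22a4 at chr11:54028315-54028344 on the minus strand from those higher in low-UMI barcodes, and Slc25a13 at chr6:6217281-6217310 on the minus strand and Slc12a7 at chr13:73763647-73763676 on the plus strand from those higher in high-UMI barcodes.
Slc43a1 window: agggtctccctcCACGTGgcagccgtggga
Slc22a4 window: cgctctccctccCACGTGgggccgagaaag
Slc25a13 window: cacagtctgagtCACGTGtcctggcccctc
Slc12a7 window: ggcaggtgaggtCACGTGgcgggcaagggc

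Carriers of nucleosides and nucleobases held the member with the highest level of all in low-UMI barcodes. Slc43a3, which carries purine nucleobases such as adenine, had 2687 UMIs in low-UMI and 465 in high-UMI barcodes, or 416 against 15.6 CPM, 26.8-fold higher (24.2 to 29.6). The 10% aliquot gave 351 and 12.9 CPM, and its long reads gave 916 and 40.6. With every barcode thinned to 3000 UMIs, 57.9% of low-UMI and 4.45% of high-UMI barcodes kept a UMI of Slc43a3, against 68.0% and 40.8% without thinning, and the 391 barcodes under 500 UMIs held it at 70.7 CPM. Short reads of both aliquots, long reads and thinned barcodes thus all had more Slc43a3 in the low-UMI class. These readings share barcodes and a capture, and the thinned barcodes reuse the same counts, so they are not independent of each other. It lies at chr2:84936579-84958509 on the plus strand, next to Slc43a1 at chr2:84838850-84863594 on the same strand, which was higher in the same class. The equilibrative nucleoside carriers of family 29 pointed the other way. Slc29a1, which takes up adenosine and other nucleosides, was at 24.3 and 46.3 CPM, 1.90-fold higher in high-UMI barcodes (1.61 to 2.26), and Slc29a2 was 4.45-fold higher there (2.21 to 10.5).

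Zinc carriers fall into families 30, which export zinc from the cytosol, and 39, which bring it in. Of 14 members 3 were higher in low-UMI barcodes (17.7% of all genes), 4 in high-UMI barcodes (29.8% of all genes) and 7 in neither. This split is near that of all genes. Slc39a14, which imports zinc, manganese and iron, had 1690 and 235 UMIs, or 262 against 7.87 CPM, 33.3-fold higher in low-UMI barcodes (29.03 to 38.3). In the 10% aliquot it was at 275 and 8.63 CPM. Slc39a1, a zinc importer of the plasma membrane, was 2.31-fold higher in the same class (2.03 to 2.63), and Slc39a11, of the importer family, was 5.80-fold higher in high-UMI barcodes (2.89 to 13.6). Slc30a1, the exporter of the plasma membrane, was 3.15-fold higher in high-UMI barcodes (1.67 to 6.71). The metallothioneins Mt1 and Mt2, which bind zinc and are induced by it, were at 7855 against 681 and 10681 against 625 CPM. Both were thus higher in low-UMI barcodes, as was Slc39a14.

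Iron, copper, haem and magnesium carriers split by gene. Slc40a1, ferroportin, the exporter of iron, had 41 and 19 UMIs and was 9.99-fold higher in low-UMI barcodes (5.67 to 18.2). Tfrc, the transferrin receptor that takes iron up, was 5.01-fold higher in high-UMI barcodes. Slc11a2, which moves iron out of endosomes, differed little, with a ratio of 0.877 (0.672 to 1.13). Slc48a1, a haem carrier of lysosomes, was 3.54-fold higher in high-UMI barcodes (2.74 to 4.65), and 13 of its 62 UMIs in low-UMI barcodes lay in the 10 barcodes with immune UMIs. Slc46a1, a carrier of folate and haem, had 3 and 101 UMIs, 7.27-fold higher in high-UMI barcodes (2.42 to 35.8). Slc11a1, a metal carrier best known from macrophages, had 5 and 122 UMIs, 5.27-fold higher in high-UMI barcodes (2.20 to 16.5). Slc31a1, the copper importer, was at 33.01 and 21.1 CPM, a ratio of 1.56 (1.33 to 1.83). Slc41a1, the sole magnesium carrier among the members, was at 84.8 against 4.15 CPM, 20.4-fold higher in low-UMI barcodes (16.8 to 25.03), and at 59.2 against 5.29 in the 10% aliquot.

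Mitochondrial carriers leaned to high-UMI barcodes. Of 31 members 12 were higher in high-UMI barcodes (29.8% of all genes), 3 in low-UMI barcodes (17.7% of all genes) and 16 in neither. The median log2 ratio was -0.84. The summed level of the group was 2.57-fold higher in high-UMI barcodes (2.51 to 2.63). Slc25a4, Slc25a5 and Slc25a3 held most of this sum in both classes. Slc25a4 and Slc25a5, which exchange ADP and ATP, were at 272 against 951 and 236 against 830 CPM, 3.50-fold (3.34 to 3.68) and 3.52-fold (3.34 to 3.71) higher in high-UMI barcodes. In the 10% aliquot the levels were 267 and 999 for Slc25a4 and 216 and 662 for Slc25a5. Both carriers followed the same order in each aliquot. Slc25a5 has close copies elsewhere in the genome, and reads shared with them could not be told apart here. Slc25a3, which imports phosphate, was at 292 and 553 CPM, 1.90-fold higher in high-UMI barcodes (1.81 to 1.99) and thus short of 2-fold. Vdac1, Vdac2 and Vdac3, the pores of the outer mitochondrial membrane, were 5.08-fold, 3.08-fold and 3.54-fold higher in high-UMI barcodes.

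Other mitochondrial carriers had fewer UMIs. Slc25a10, which exchanges malate and succinate for phosphate, had 6 and 433 UMIs in the 90% aliquot, 15.6-fold higher in high-UMI barcodes (7.10 to 42.7), yet 3 and 42 in the 10% aliquot. Slc25a24, which exchanges ATP-magnesium for phosphate and is gated by calcium, had 16 and 950 UMIs, 12.8-fold higher in high-UMI barcodes (7.86 to 22.5), with 2 and 111 in the 10% aliquot. Slc25a13, which exports aspartate to the cytosol, had 0 UMIs in low-UMI and 110 in high-UMI barcodes, at least 7.92-fold higher, counting the 0 as 3 UMIs over the class. Slc25a24 and Slc25a13 lay on the high-UMI side in both aliquots. Slc25a13, however, had only 20 UMIs in the classes of the 10% aliquot, and its ratio there was under 2-fold. Slc25a11, which exchanges oxoglutarate and malate, was 4.8-fold higher in high-UMI barcodes (3.86 to 6.05), Slc25a26, which imports S-adenosylmethionine, 5.62-fold (2.35 to 17.6), and Slc25a1, the citrate carrier, 2.98-fold (1.52 to 6.66). Slc25a39, which imports glutathione, was at 35.8 and 73.9 CPM, 2.06-fold higher in high-UMI barcodes (1.80 to 2.37), and was short of 2-fold with scaling to the all-gene median. Slc25a20, the carnitine carrier of fatty acid oxidation, had a ratio of 0.787 (0.556 to 1.09). Its log2 ratio was -0.35 here, -2.89 in the 10% aliquot, with 1 and 34 UMIs, and -3.47 in long reads. Of the 3 members higher in low-UMI barcodes, Slc25a33, which carries pyrimidine nucleotides, had the most UMIs, at 42.0 against 10.5 CPM.

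**Figure D2:**
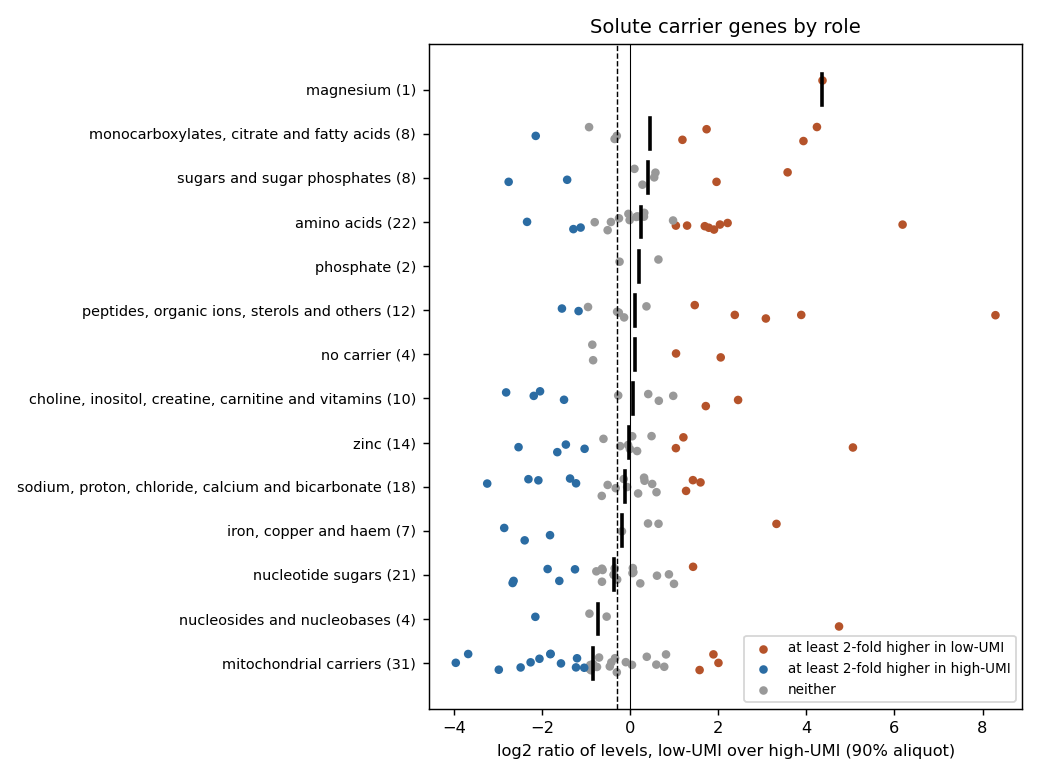
Log2 ratio of levels, low-UMI over high-UMI barcodes of the 90% aliquot, for each solute carrier gene by role, with the number of genes in brackets; brown points are at least 2-fold higher in low-UMI and blue points in high-UMI barcodes, thick bars are group medians and the dashed line is the all-gene median of -0.30. The 31 mitochondrial carriers have the lowest median, -0.84, and Slc10a6 is the point farthest to the right.

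Carriers of monocarboxylates and fatty acids were higher in low-UMI barcodes in 4 of 8 cases (17.7% of all genes). In high-UMI barcodes 1 was higher (29.8% of all genes). Slc16a3, the lactate exporter of glycolytic cells, had 231 and 70 UMIs, or 35.8 against 2.34 CPM, 15.3-fold higher (11.7 to 20.3). Slc16a1, which moves lactate both ways, went the other way at 12.7 and 24.3 CPM, 1.91-fold higher in high-UMI barcodes (1.52 to 2.43). Bsg, the partner that takes both to the cell surface, was 2.16-fold higher in high-UMI barcodes. For Slc16a1 the log2 ratio was -0.94 in this comparison, -2.92 in the 10% aliquot and 0.19 against the high-UMI barcodes without cell cycle UMIs, so that its direction turned with the barcodes compared. Among glucose carriers Slc2a1 had levels of 13.02 and 10.7 CPM with a ratio of 1.21 (0.941 to 1.54), and Slc2a12 had 36 and 14 UMIs, 11.9-fold higher in low-UMI barcodes (6.27 to 23.9). Txnip, which limits glucose uptake, was 9.36-fold higher in low-UMI barcodes. Slc37a4, which brings glucose 6-phosphate into the endoplasmic reticulum, had 5 and 157 UMIs, 6.78-fold higher in high-UMI barcodes (2.85 to 21.2). Slc50a1, a further sugar carrier, had a ratio of 1.46 (1.19 to 1.78).

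Slc10a6 had the largest ratio of all members. This carrier of sulphated steroids had 339 UMIs in low-UMI and 5 in high-UMI barcodes, or 52.5 against 0.167 CPM, 314-fold higher (133 to 973), and 39 and 1 UMIs in the 10% aliquot. It had a UMI in 19.4% of low-UMI barcodes, none in the barcodes under 500 UMIs and none in the low-UMI barcodes with immune UMIs. In the depth ranges described below, Slc10a6 was at 38.9 to 66.0 CPM in low-UMI and 0.128 to 0.228 CPM in high-UMI barcodes. These ranges divide the same barcodes that gave its ratio and add no separate support. Slc15a2, a carrier of small peptides, had 51 and 16 UMIs, 14.8-fold higher in low-UMI barcodes (8.28 to 27.7).

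Carriers of carnitine and related compounds lie side by side on chromosome 11. Slc22a5, the main carnitine importer, at chr11:53864542-53891660, Slc22a21 at chr11:53949965-53980332 and Slc22a4, which carries ergothioneine, at chr11:53983123-54028090 are all on the minus strand. All 3 were higher in low-UMI barcodes, 5.46-fold (3.49 to 8.59), 8.46-fold (4.97 to 14.7) and 5.19-fold (2.92 to 9.27), with 28 to 46 UMIs each in that class. The 10% aliquot held 3 to 5 UMIs of each in low-UMI barcodes. Among carriers of vitamins and related compounds the order was mixed. Slc6a8, the creatine carrier, was at 16.6 and 10.6 CPM, a ratio of 1.57 (1.25 to 1.96). Slc44a2, a choline carrier, was 4.14-fold higher in high-UMI barcodes (3.18 to 5.48) and Slc5a6, which takes up biotin and pantothenate, 7.06-fold (2.34 to 34.8) with 3 and 98 UMIs.

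Carriers of nucleotide sugars were counted in neither direction in 15 of 21 cases. In low-UMI barcodes 1 was higher (17.7% of all genes) and in high-UMI barcodes 5 (29.8% of all genes). Slc35b1, which brings ATP into the endoplasmic reticulum, held 53.5 and 51.3 CPM, a ratio of 1.04 (0.924 to 1.17). Slc35c2 had 20 and 581 UMIs, 6.27-fold higher in high-UMI barcodes (4.02 to 10.4), and Slc35d2, a carrier of UDP-sugars, had 2 and 59, 6.37-fold (1.69 to 53.8). Slc35f5, of no settled function, was 1.99-fold higher in low-UMI barcodes (1.62 to 2.44), just short of the limit. Slc35a1, the carrier of CMP-sialic acid, had a ratio of 0.586 (0.457 to 0.744).

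The members included 18 carriers of sodium, protons, chloride, calcium and bicarbonate. Of these 3 were higher in low-UMI barcodes (17.7% of all genes), 5 in high-UMI barcodes (29.8% of all genes) and 10 in neither. This split is near that of all genes. Slc4a7, a sodium and bicarbonate importer, was at 69.1 and 25.8 CPM, 2.68-fold higher in low-UMI barcodes (2.38 to 3.02). Slc12a7, an exporter of potassium and chloride, had 3 and 69 UMIs and was 4.97-fold higher in high-UMI barcodes (1.63 to 24.7). Slc24a3, a calcium exporter, had 1 and 44 UMIs and was 9.50-fold higher in high-UMI barcodes (1.62 to 384). Neither phosphate importer was counted, with a ratio of 0.845 for Slc20a1 (0.647 to 1.09). Of the genes that encode no carrier, Slc9a3r1, a scaffold that holds ion exchangers at the membrane, was 4.15-fold higher in low-UMI barcodes (3.56 to 4.84), and Slc7a6os 2.06-fold (1.76 to 2.39).

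The classes were cut by depth, and the levels were also read in 3 ranges of depth within each. These ranges divide the same barcodes whose sums made the counts, so most of the order below follows from the choice of the genes. The ranges cannot separate the classes from depth, and the same was not counted over all genes. All 36 members higher in low-UMI barcodes lay above every high-UMI range in each low-UMI range, and 38 of the 42 higher in high-UMI barcodes lay above every low-UMI range. Slc10a6, Slc39a14 and Slc43a3 were high in each of the 3 low-UMI ranges, and Slc25a4 and Slc25a5 in each of the 3 high-UMI ranges. Against the 35 high-UMI barcodes without cell cycle UMIs, 34 members were higher in low-UMI (14.4% of all genes) and 31 in high-UMI barcodes (21.9%), with a ratio for 157 members. Of the 41 named members counted in the main comparison that had a value there, 37 stayed at least 2-fold apart in the same direction. The exceptions were Slc25a1, Slc25a39, Slc39a1 and Slc4a7. Slc7a11 kept a log2 ratio of 1.14. Of the 18 named members counted in neither direction before, 9 were at least 2-fold apart against these barcodes. Slc38a1 (log2 ratio 1.78), Slc31a1, Slc2a1, Slc6a8, Slc50a1 and Slc1a5 were higher in low-UMI barcodes, and Slc35a1, Slc25a20 and Slc29a1 were higher in high-UMI barcodes.

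**Figure D3:**
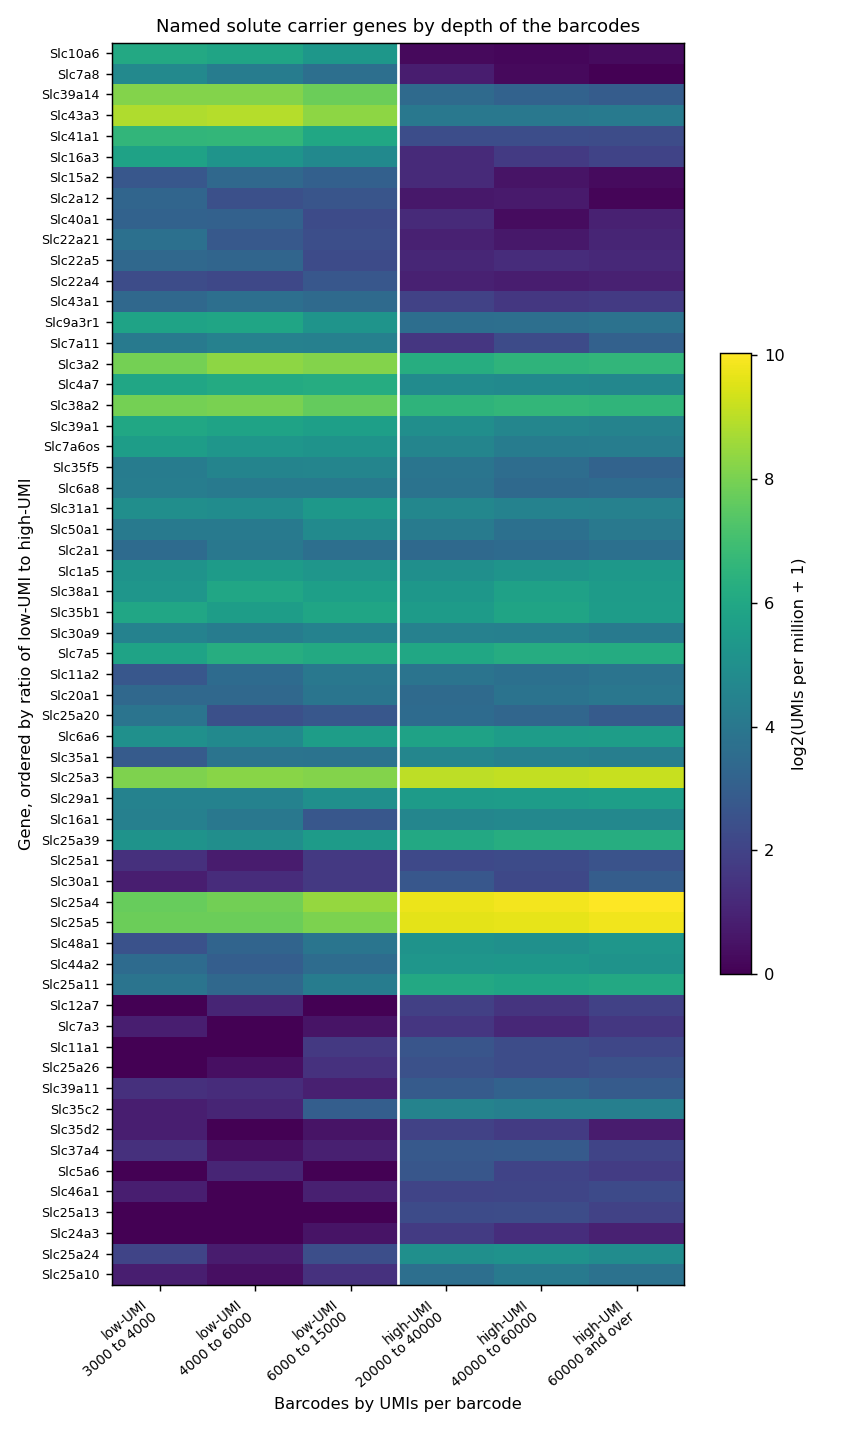
Level of the named solute carrier genes, as log2(CPM + 1) by colour, in 3 ranges of UMIs per barcode of the low-UMI class (left of the white line) and 3 of the high-UMI class (right) of the 90% aliquot. Genes are ordered by the ratio of the classes, and the top rows, from Slc10a6 on, are brighter in all 3 ranges on the left.

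The 10% aliquot, read by the same rule, had 34 members higher in low-UMI barcodes (14.9% of all genes) and 18 in high-UMI barcodes (19.6% of all genes). Of the 78 members counted in the 90% aliquot, 43 were counted in the same direction in the 10% aliquot and 0 in the opposite one, and 2, Slc30a6 and Slc5a6, had a ratio on the other side of 1. Of the 60 members with at least 50 UMIs in the classes of the 10% aliquot, 53 had the same sign in both. The long reads of the 10% aliquot, summed over the isoforms of a gene, had 44 of 152 members higher in low-UMI barcodes (19% of all genes) and 35 in high-UMI barcodes (24.5% of all genes). These aliquots share barcodes and a capture and are no replicates of each other.

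**Figure D4:**
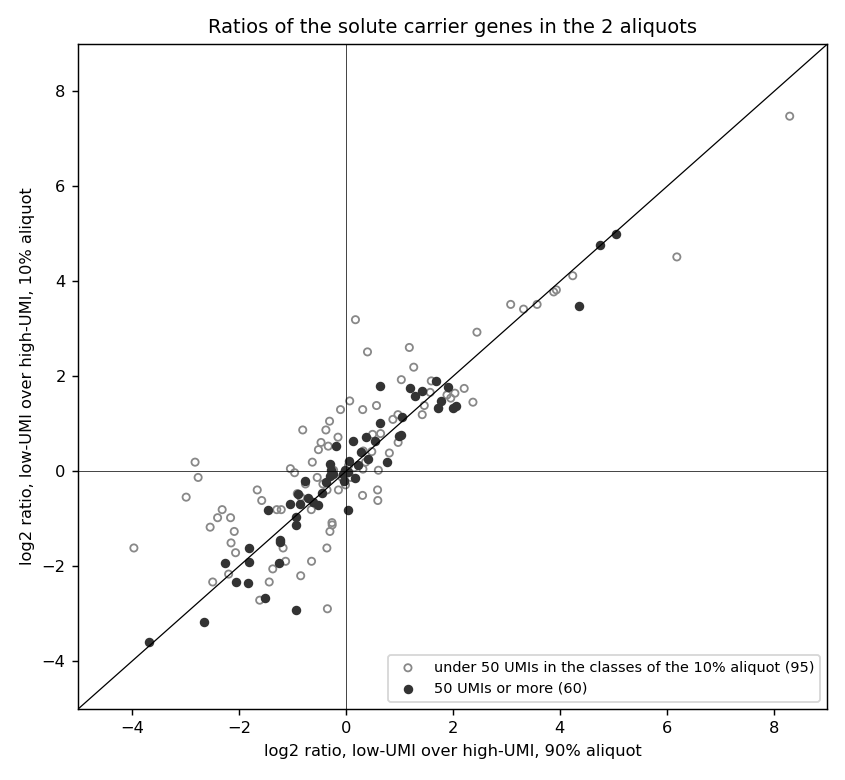
Log2 ratio of levels, low-UMI over high-UMI barcodes, in the 90% (horizontal) and the 10% aliquot (vertical), for 60 solute carrier genes with at least 50 UMIs in the classes of the 10% aliquot (filled) and 95 with fewer (open); 7 genes with 0 low-UMI counts whose bound gave no direction are not drawn. The line marks equal ratios, and 53 of the 60 filled points lie on the same side of 0 in both aliquots.

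Isoforms were read from the long-read UMIs of the 10% aliquot. The count table lists 904 isoforms of members, most without the name of a reference transcript. Of the 33 members with at least 50 long-read UMIs in each class, 11 (33.3%) had an isoform whose share of the UMIs of the gene differed by at least 20 percentage points, against 17.3% of the 3265 genes with as many UMIs. Slc6a6, the taurine carrier, had the widest difference. The isoform at chr6:91684128-91755490 took 39 of 60 UMIs in low-UMI barcodes, 65.0% (51.6 to 76.9%), and 56 of 213 in high-UMI barcodes, 26.3% (20.5 to 32.7%). Slc35b1 differed on its reference transcript, which took 10.7% (7.57 to 14.6%) of 327 UMIs in low-UMI and 43.7% (39.4 to 48.03%) of 531 in high-UMI barcodes. The reference transcript also took the smaller share in low-UMI barcodes for Slc35f5 (35.1% against 71.7%), Slc25a11 (50.6% against 75.6%) and Slc31a1 (66.7% against 89.5%). Slc7a5, whose level did not differ, had an isoform at chr8:121894621-121907694, which stops before the 3′ end of the coding part, with 30.9% (25.03 to 37.3%) of 233 UMIs in low-UMI and 8.93% (6.84 to 11.4%) of 638 in high-UMI barcodes. Slc7a6os likewise had an isoform without the 3′ end of the coding part with 37.97% against 10.3%. The coding part is here that of the reference transcript with the longest coding sequence. The remaining differences were those of Slc38a2 (36.2% against 63.0%), Slc30a9 (13.2% against 42.2%), Slc4a7 (19.8% against 41%) and Slc35a1 (41.2% against 19.3%).

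**Figure D5:**
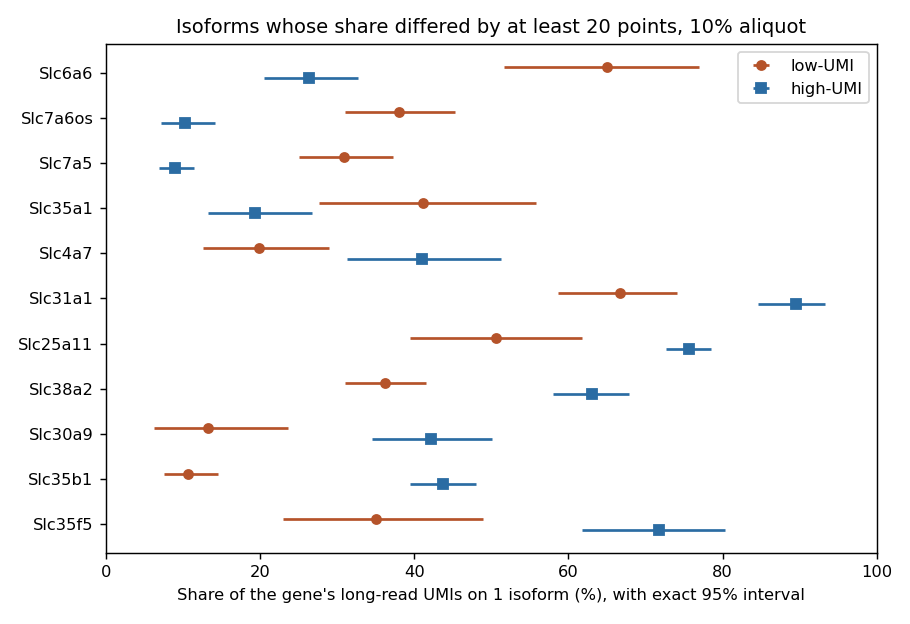
Share of the long-read UMIs of a gene on 1 isoform, in percent, in low-UMI (brown circles) and high-UMI barcodes (blue squares) of the 10% aliquot, for the 11 solute carrier genes whose share differed by at least 20 points; bars are exact 95% intervals. Slc6a6 has 65.0% against 26.3% and Slc35f5 35.1% against 71.7%.

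An isoform that encloses only a shorter coding part than the longest of its gene was counted as lacking an end. The share of UMIs on isoforms whose ends enclose the whole longest coding part differed in the sum over members more than within genes. Summed over members, which depends on the genes that hold the UMIs of each class, it was 61.8% (60.9 to 62.7%) in low-UMI and 85.8% (85.5 to 86.2%) in high-UMI barcodes, and over all genes 83.6% and 89.1%. Slc17a5, Slc38a6 and Slc39a14 hold many of the member UMIs without the 3′ end of the coding part. Slc3a2 had 8.39% of its UMIs on enclosing isoforms in low-UMI and 15.03% in high-UMI barcodes, with 0% on isoforms that lack the 3′ end alone. These shares therefore do not measure molecules with a complete coding part. The median over the 33 members was 81.7% against 87.7%, with 91.6% against 95.3% over all genes. Within genes the median difference was -0.55 points over members and 0 over all genes. Of the 33 members 12 did not differ, 17 were lower in low-UMI barcodes and 4 were higher. This split was not counted over all genes. The share was at least 20 points lower in low-UMI barcodes for 4 members, Slc30a9, Slc7a5, Slc38a1 and Slc7a6os (12.1%, against 7.32% of all genes). For 1 member, Slc6a6, it was at least 20 points higher (3.03%, against 0.97% of all genes). Slc30a9, of the zinc exporter family, had 78.3% (71.3 to 84.3%) in high-UMI and 39.7% (28.03 to 52.3%) in low-UMI barcodes.

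Slc25a3 is known for a pair of coding exons used in place of each other, one of them mainly in heart and skeletal muscle. In the annotation from the nanopore reads, the exon at chr10:91121922-91122043, of 122 bases, was in 11 isoforms with 11445 of the 12701 supporting reads of the gene, and the exon at chr10:91122207-91122331, of 125 bases, was in 3 isoforms with 711. In the count table the reference transcript with the longer exon took 19 of 851 UMIs in low-UMI barcodes, 2.23% (1.35 to 3.46%), and 238 of 5851 in high-UMI barcodes, 4.07% (3.58 to 4.61%). The intervals of this 1 transcript do not overlap. On the reference transcript with the shorter exon 0 UMIs were counted in either class, although that exon held most of the supporting reads. Shares of these reference transcripts therefore do not measure the use of either exon. Both exons lie on the minus strand, and 63.5% of the aligned positions are identical. They are shown, from Gencode vM21 transcripts, because the long reads tell them apart where 3′ short reads do not, with capitals for bases that differ within the pair.
Slc25a3 longer exon: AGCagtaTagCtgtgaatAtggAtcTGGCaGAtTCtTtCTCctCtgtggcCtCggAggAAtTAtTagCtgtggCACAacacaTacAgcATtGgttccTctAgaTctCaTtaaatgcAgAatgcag
Slc25a3 shorter exon: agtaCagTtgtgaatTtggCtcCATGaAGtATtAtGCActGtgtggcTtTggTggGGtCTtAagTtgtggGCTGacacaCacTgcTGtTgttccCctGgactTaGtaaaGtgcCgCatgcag

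Within the high-UMI class, the 41 barcodes with at least 10 UMIs of Myog, a gene of muscle differentiation, were set against the 460 with none, at a similar median depth of 45847 and 46608 UMIs. Of the members 12 were at least 2-fold higher with Myog (4.49% of all genes) and 5 were lower (2.95%). Slc29a1, the nucleoside carrier, was at 99.7 against 39.5 CPM, 2.52-fold higher (2.15 to 2.95). Slc1a5, the glutamine carrier, was at 16.9 against 38.2 CPM, 2.26-fold lower (1.60 to 3.31). Barcodes of 1 capture are not replicates, and the limit of 10 UMIs was chosen after the data were seen.

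Within the low-UMI class, 604 barcodes had a UMI of Myod1 and 639 had none. Of the members 3 were higher with Myod1 (1.34% of all genes) and 5 without it (4.41%). Among high-UMI barcodes, 8 members were higher in the 35 without cell cycle UMIs (5.85% of all genes) and 10 in the 571 with them (6.33%). Slc38a1 was at 15.1 against 48.6 CPM, 3.21-fold lower without them (2.05 to 5.35). The barcodes without cell cycle UMIs were also shallower, with medians of 36428 and 47930 UMIs, and the part of depth in these values was not tested.

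Long and short reads of the same 236 barcodes gave levels at least 8-fold higher in long reads for 3 members (2.52%, against 2.07% of all genes) and in short reads for 1 (0.84%, against 12.95%). Over the 119 members with at least 50 UMIs in both readouts together, the median log2 ratio of long-read to short-read level was 1.32, against 0.94 over 9950 genes. Slc17a5, which exports sialic acid from lysosomes, had 1918 long-read and 5 short-read UMIs, or 319 against 0.805 CPM. Of these long-read UMIs 99.5% lay on an isoform at chr9:78568358-78587998 on the minus strand, which covers the 5′ part of a gene that reaches from 78536488 to 78588041. Slc38a6, a sodium-coupled amino acid carrier, had 1048 against 26 UMIs, and 80.5% of the long-read UMIs lay on an isoform at chr12:73286857-73312182 on the plus strand, again the 5′ part of the gene, which ends at 73354049. Slc27a1, a fatty acid carrier, had 55 against 7. Slc24a5, a calcium exchanger of pigment cells, had 0 long-read and 69 short-read UMIs, and it overlaps Myef2 on the opposite strand. In all, 33 members overlap another annotated gene on the same strand and 61 one on the opposite strand, among them Slc5a3, the inositol carrier, which lies within Mrps6. Short reads of such genes may belong to either. Slc25a33, Slc29a2, Slc30a6, Slc17a5, Slc38a6, Slc27a1, Slc24a5, Slc5a3, Slc4a1ap and Slc9a3r2 were named after their values were seen.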

How the data were processed

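MuSCs were profiled by 10x 3′ capture, with Illumina reads of both aliquots and nanopore reads of the 10% aliquot. The deposited files hold raw UMI counts per gene and barcode, which the authors made with scPipe, and UMI counts per isoform and barcode, which they made with FLAMES after Guppy basecalling on the mouse genome mm10. The submitters' processing notes name Cell Ranger 1.3, minimap2 2.17 and GRCm38.p6. The isoform annotation deposited by the authors gives positions and supporting read counts. The table totals were 39044129 UMIs in 3001 barcodes (90% aliquot), 6772259 in 1991 barcodes (10% aliquot) and 8297203 long-read UMIs.

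From these counts, UMIs were summed per class of barcodes and divided by the class total. Ratios have exact conditional binomial 95% intervals and shares have exact Clopper-Pearson intervals. Both cover counting error only. A count of 0 was set to 3 counts over the class. No test was possible with 1 capture. The members, gene lists, classes and named genes were chosen with earlier results of these data known. Named genes were the 15 with the largest ratio in each direction, the 10 of highest level in each class, the member with the most UMIs in each role, the 10 with the largest isoform shift, and a list taken whatever its values. The group of Slc4a1ap and the comparison of coding spans were set after values were seen. Alternatives changed the classes, the minimum count, the fold, the scaling and the aliquot. Of the gene identifiers 99.8% were matched to a symbol. Doublets were not called. Promoters are RefSeq's. Python 3.11.15, numpy 2.4.6, pandas 2.3.3, scipy 1.17.1 and matplotlib 3.10.9 were used, and the scripts were tested on simulated data. Results for a few genes and 1 exon are not reported here.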

Additional observations from a re-analysis of the deposited data

Results flagged for a closer look

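For Slc30a6, a zinc carrier of the Golgi apparatus, the log2 ratio of low-UMI to high-UMI barcodes was 0.056 in the 10% aliquot, with 5 and 22 UMIs, and -1.04 in the 90% aliquot. For Slc5a6, the biotin and pantothenate carrier, it was 0.19 in the 10% aliquot, with 2 and 8 UMIs, and -2.82 in the 90% aliquot. Both stand out because the aliquots differ in sign. The intervals of the 10% ratios were 0.308 to 2.81 for Slc30a6 and 0.118 to 5.73 for Slc5a6, and the difference between the aliquots was not tested.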

How the results depend on the processing

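Depth limits many values, with 70 of 162 members under 200 UMIs, and every value comes from 1 capture. No paired analysis was possible because there are no replicates. Joining isoforms of the same intron chain was not run, since the exons of isoforms listed only in the count table are not used here. The share of UMIs on members in high-UMI barcodes was 0.381% without cell cycle UMIs, 0.410% without barcodes with markers of other cell types, 0.415% as a mean over barcodes, 0.415% without barcodes listed in both tables, 0.4003% with a minimum of 200 UMIs, 0.423% with a minimum of 10, 0.370% in the 10% aliquot and 0.881% in its long reads. The low-UMI share was 0.359% with a minimum of 200 UMIs, 0.342% in the 10% aliquot and 0.853% in its long reads. The median log2 ratio was 0.094 with scaling to the all-gene median and 0.15 in long reads. In the 10% aliquot 18 members were higher in high-UMI barcodes. With a minimum of 200 UMIs the counts were 19 and 20 of 92 members (15.2% and 31.1% of all genes), and at 3-fold 25 and 27 of 162 (10.8% and 18.1%). Isoform shifts numbered 29 of 67 members at 20 UMIs (29.3% of all genes), 6 of 20 at 100 UMIs (10.6%), 21 of 33 at 10 points (53.5%), 3 of 33 at 30 points (5.64%) and 1 of 8 with shares taken among reference transcripts alone (5.65%). The sign of Slc5a6 reversed in the 10% aliquot, at 0.19 on the log2 scale. Of the named members counted and given a value there, 31 of 39 kept 2-fold in the 10% aliquot and 34 of 38 in long reads. In the 10% aliquot those under 2-fold were Slc11a1, Slc12a7, Slc25a1, Slc25a13, Slc25a39, Slc30a1, Slc37a4 and Slc5a6, and in long reads Slc12a7, Slc25a10, Slc25a39 and Slc5a6. Of the 18 named members counted in neither direction, 4 passed 2-fold in the 10% aliquot (Slc16a1, Slc25a20, Slc29a1 and Slc31a1) and 6 in long reads (the same 4, Slc25a3 and Slc35b1). The cause was not tested.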
